A study of Mus musculus with 16 samples.

Results

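Of the 6798 chromatin loops listed for the newborn mouse cochlea, 6689 lay on chromosomes 1 to 19, and 241 of these (3.60%, 95% Wilson interval 3.18 to 4.08) joined anchors that were both far from genes. Each anchor is a 10 kb bin, and a loop was taken when neither of its bins overlapped or lay within 50 kb of the body of a protein-coding gene. These 241 are called desert loops here, and the stretch between neighbouring coding genes in which an anchor sits is called its desert. The choice used positions only, not the strength or the significance of a loop. The 5 members nearest to the limit had their nearer anchor 50.50 to 51.92 kb from a gene, and the 5 loops just outside had it at 48.13 to 49.92 kb.

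Micro-C, which maps contacts between stretches of chromatin after cutting it between nucleosomes, was run on whole cochleae of C57Bl/6 mice labelled P0 (postnatal day 0, or day 1 by the design text). There were 4 replicates, of which replicate 4 was a technical one, and the loop list was called on all of them merged. No loop therefore has a value per replicate, no spread between animals can be given, and the intervals below cover counting error over loops only. The whole organ was used, so the cell type that carries a loop is unknown, and no defining marker of the tissue can be checked in a list of loops.

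Gene deserts are long stretches with few or no coding genes. They often surround genes for transcription factors and signals of development and hold distant enhancers that act on those genes. Many chromatin loops form when cohesin extrudes DNA until it meets CTCF, a DNA-binding protein, at a pair of sites whose motifs point toward each other, an arrangement called convergent.

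The desert loops fell into a pair of classes set by their position. In 131 of them (54.4%) both anchors lay in the same desert, so that no coding gene was inside. The other 110 reached across genes from one desert into another: 80 crossed a single coding gene, 20 crossed 2, and the rest crossed 3 to 8. The classes differed in distance, in FDR (the caller's false discovery rate for a loop), in the strand of CTCF motifs and in the repeats at their anchors.

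The following stretches of anchor bins are shown because they hold the best match to the 14-base CTCF consensus (at most 1 mismatch, both strands searched) in loops that the results turn on. Capitals mark the match, and each is written 5′ to 3′ on the strand of the match, with positions in GRCm38.p6 (the build called mm10) and letters from RefSeq. A match is a description of the letters and not a bound site. Such a match was present in 21.6% of all usable 10 kb bins (those with at least 90% known bases) and in 15.6% of all bins far from genes.
Gnai1 loop, left anchor (chr5:18087969-18087998, plus strand): attttcaaCCACCAGATGGCAGaattaaag
Gnai1 loop, right anchor (chr5:18446153-18446182, minus strand): atgatccaCCACGAGGTGGCAGaacggcat
Klf6 loop of 1810 kb, left anchor (chr13:4666963-4666992, plus strand): tagaactgCCAGCAGATGGCGCaacagccc
Klf6 loop of 1810 kb, right anchor (chr13:6471826-6471855, minus strand): gtaagacaCCACTAGGTGTCGCtaccttcc
Isl1 loop of 1480 kb, left anchor (chr13:115230653-115230682, plus strand): aatcacgaCCACCAGAGGGGAGtatttacc
Isl1 loops, shared right anchor (chr13:116715005-116715034, minus strand): tagggtggACAGCAGGTGGCAGcaaaggcc
Tox3 loop, left anchor (chr8:90001085-90001114, plus strand): gcacatggCCACCAGAGAGCAGcagaggac
Tox3 loop, right anchor (chr8:90662303-90662332, minus strand): cttggtccCCAGTAGGTGGTGCtgtttgaa
Eya1 loop, left anchor (chr1:13789380-13789409, plus strand): cacagctgCCAGCAGATGGCAGcacccctt
Eya1 loop, right anchor (chr1:14638084-14638113, plus strand): aatgtggaCCAATAGAGGGCACcttaatgc
Sox2 loop, right anchor (chr3:35482508-35482537, minus strand): cgtacaggCCACTAGGTGGCACtatttacc
Npvf to Nfe2l3 loop, right anchor (chr6:50937300-50937329, minus strand): gcatagcaCCACCAGGGGGCGCagaaagca
Slc10a2 to Efnb2 loop, left anchor (chr8:6155956-6155985, plus strand): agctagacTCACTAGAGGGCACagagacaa
Slc8a1 loop, right anchor (chr17:82979215-82979244, minus strand): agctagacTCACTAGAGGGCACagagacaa
The Gnai1, Klf6, Isl1 and Tox3 pairs point toward each other, while both Eya1 matches lie on the plus strand. The Slc10a2 and Slc8a1 stretches are identical over all 30 bases although they come from different chromosomes. That stretch occurs 1059 times on chromosomes 1 to 19, and each of the others shown occurs once.

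The loops across genes were the longer and the more often significant class. Their median distance was 760 kb (order-statistic interval 660 to 900), against 230 kb (190 to 270) inside a desert, 270 kb (270 to 280) for the 6448 other loops and 450 kb (430 to 480) for the 1432 of these that had 1 anchor far from genes. A loop across a gene has to span that gene and 50 kb on either side, which sets a lower limit on its distance. Distances of 1 Mb or more were found in 39 of the 110 loops across genes (35.5%), in 6 of the 131 inside a desert (4.58%), in 6.03% of other loops and in 13.2% of those with 1 far anchor. An FDR under 0.05 was given to 144 of the 241 desert loops (59.8%, 53.5 to 65.7), where 79.0% of all autosomal loops had one. That share was 73.6% (64.7 to 81.0) across genes and 48.1% (39.7 to 56.6) inside a desert, and 75.7% (73.4 to 77.8) of other loops with 1 far anchor. At an FDR under 0.01 there were 70 desert loops (29.0%), against 48.1% of all autosomal loops.

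**Figure D1:**
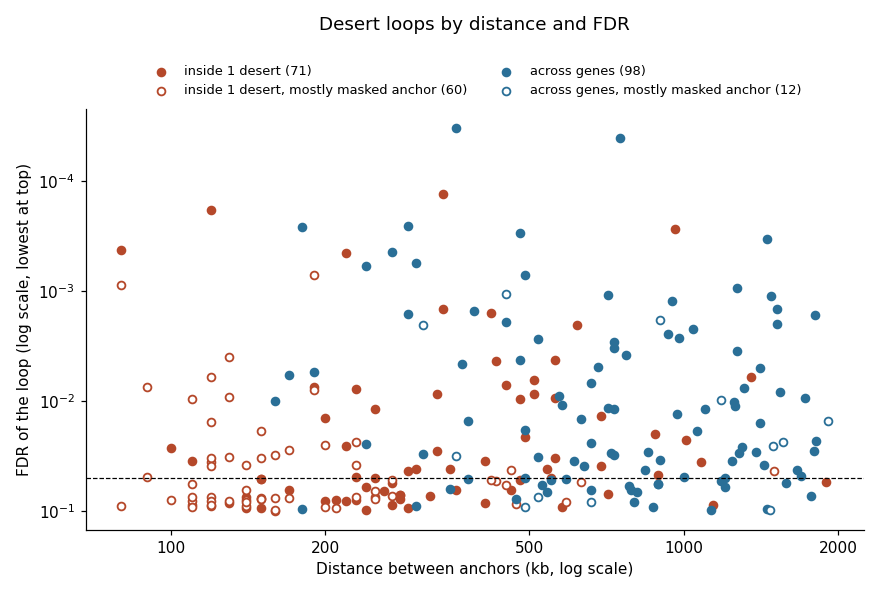
Each point is 1 of the 241 desert loops, with the distance between its anchors on a log scale (kb) and its FDR on a log scale with the lowest at the top. Red points lie inside 1 desert, blue points reach across genes, open points have an anchor bin of at least 60% soft-masked bases, and the dashed line is an FDR of 0.05. Open red points crowd at short distances on both sides of the line, and blue points reach from 160 to 1910 kb.

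The lower share of significant calls inside deserts was found at each distance up to 800 kb. Under 200 kb, 44.4% of 54 loops inside a desert had an FDR under 0.05 (32.0 to 57.6), against 80.8% of 2222 other loops (79.1 to 82.4). From 200 to under 400 kb the shares were 40.0% of 40 loops (26.3 to 55.4) and 78.9%, and from 400 to under 800 kb they were 57.1% of 28 loops and 79.2%. At 800 kb or more only 9 loops lay inside a desert, and 7 of them had an FDR under 0.05. The loops across genes had shares of 67.6% to 81.2% in these groups, with intervals that held the shares of other loops. No test of these differences was run, since the loops come from 1 merged map.

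**Figure D2:**
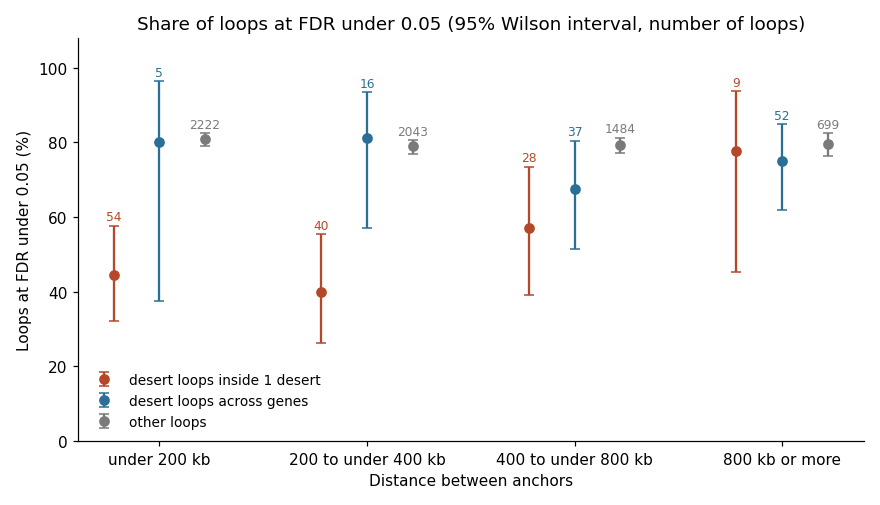
Share of loops at an FDR under 0.05 (percent) by distance between anchors, for desert loops inside 1 desert (red), desert loops across genes (blue) and other loops (grey). Bars are 95% Wilson intervals and numbers above them count loops. The red points lie below the grey ones up to 800 kb, and the blue bars hold the grey points at every distance.

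Some anchor bins of the loops inside a desert were rich in repeats. In the reference, bases of repeats are written in lower case (soft-masked). The median soft-masked share was 29.7% in the anchor bins of these loops, against 33.2% in all bins far from genes. The upper quartiles were 69.5% and 49.1%. A bin with at least 60% soft-masked bases is called mostly masked here, a limit set after the values were seen. Of the 253 anchor bins of loops inside a desert, 74 were mostly masked (29.2%, 24.0 to 35.1), against 11 of 206 across genes (5.34%, 3.01 to 9.31), 3.45% of the other loops' anchor bins, 6.84% of those that were far from genes and 15.6% of all bins far from genes. Counted by loop, 60 of 131 inside a desert had a mostly masked anchor (45.8%, 37.5 to 54.3), and in 15 of them both anchors were. The share was 12 of 110 (10.9%) across genes and 404 of 6448 (6.27%) among other loops. With a limit of 80% masked bases the shares were 33.6%, 2.73% and 1.29%.

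The mostly masked anchors sat at the short loops. Under 200 kb, 42 of the 54 loops inside a desert had one (77.8%, 65.1 to 86.8), where 106 of 2222 other loops under 200 kb did (4.77%, 3.96 to 5.74). At 200 kb or more, 18 of 77 loops inside a desert had one (23.4%, 15.3 to 34.0). Loops inside a desert with a mostly masked anchor had a median distance of 150 kb (130 to 170) and an FDR under 0.05 in 24 of 60 (40.0%, 28.6 to 52.6). Those without had a median of 320 kb (260 to 420) and an FDR under 0.05 in 39 of 71 (54.9%, 43.4 to 66.0). The intervals of these shares overlap, and the groups were not matched for distance. Of other loops without such an anchor, 80.2% had an FDR under 0.05. Whether repeats shape these calls was not tested. The authors kept uniquely mapped pairs before the list was made, and how reads in repeats were placed was not tested either.

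**Figure D3:**
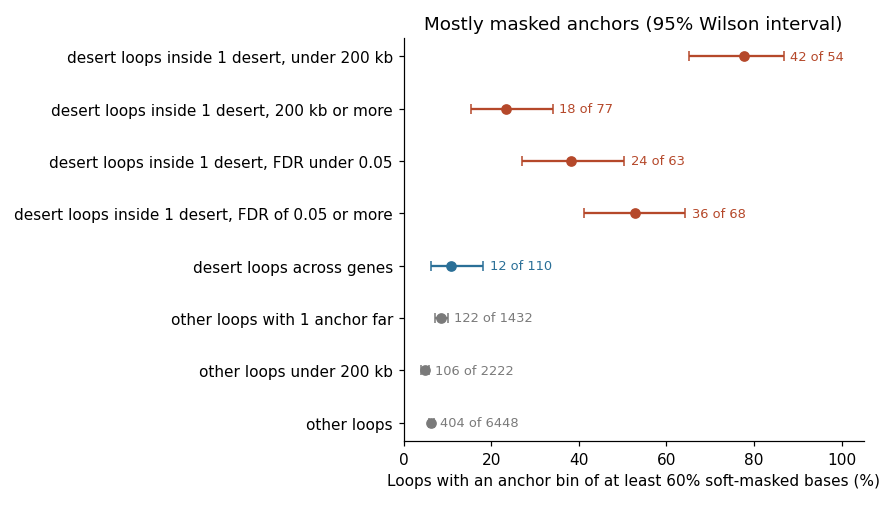
Share of loops (percent) with at least 1 anchor bin of 60% or more soft-masked bases, for groups of desert loops inside a desert (red), desert loops across genes (blue) and other loops (grey). Bars are 95% Wilson intervals, with the counts beside them. Short loops inside a desert stand at 77.8%, and other loops of that distance at 4.77%.

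CTCF consensus matches also separated the classes. A match was present in 112 of 206 anchor bins of loops across genes (54.4%, 47.5 to 61.0) and in 83 of 253 inside a desert (32.8%, 27.3 to 38.8), against 48.8% of other anchor bins and 43.6% (40.8 to 46.4) of those far from genes. Both anchors held one in 36 of 110 loops across genes (32.7%) and in 16 of 131 inside a desert (12.2%). Neither anchor did in 20% and 46.6%. Left anchors of loops across genes carried the match on the plus strand in 43 of 55 cases (78.2%, 65.6 to 87.1) and right anchors in 6 of 62 (9.68%, 4.51 to 19.5), so that the matches mostly pointed into the loop. Inside a desert the plus strand was found at 23 of 42 left anchors (54.8%, 39.9 to 68.8) and 20 of 43 right anchors (46.5%, 32.5 to 61.1). Other loops stood at 81.0% and 17.5%.

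Among loops with a single strand at both anchors, 24 of 31 across genes were convergent (77.4%, 60.2 to 88.6) and 8 of 16 inside a desert (50%, 28.0 to 72.0), against 985 of 1436 other loops (68.6%). With so few pairs the intervals of both classes hold the share of other loops. Inside a desert, 6 of 8 such pairs were convergent without a mostly masked anchor (75%, 40.9 to 92.9) and 2 of 8 with one (25%, 7.15 to 59.1). Across genes, 24 of 30 were convergent without one (80%, 62.7 to 90.5). Single anchors differed less by masking. Inside a desert without a mostly masked anchor, plus matches stood at 12 of 21 left anchors (57.1%, 36.5 to 75.5). On the right they stood at 11 of 26 (42.3%, 25.5 to 61.1). In loops with a mostly masked anchor the counts were 11 of 21 on the left and 9 of 17 on the right. Across genes without one the shares were 82.0% and 8.62%. Inside a desert the strand at the left anchor also went with the FDR: it was plus in 17 of 23 loops at an FDR under 0.05 (73.9%, 53.5 to 87.5) and in 6 of 19 at a higher FDR (31.6%, 15.4 to 54.0). The FDR used for that split is the readout of the same map.

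**Figure D4:**
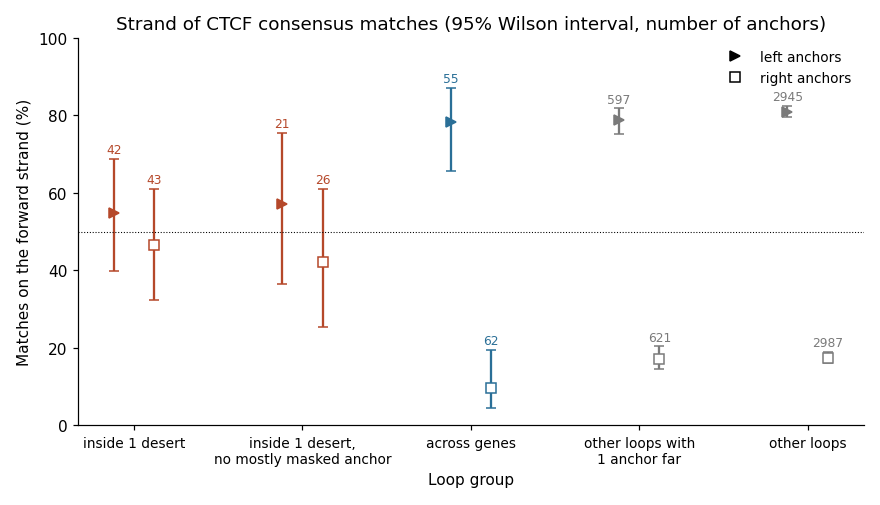
Share of CTCF consensus matches on the plus (forward) strand in percent, at left anchors (filled triangles) and right anchors (open squares), by loop group. Bars are 95% Wilson intervals and numbers count anchors with a match on a single strand. The sides are far apart across genes (78.2% and 9.68%) and close together inside 1 desert (54.8% and 46.5%).

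In all, 121 coding genes lay inside a desert loop. Of these, 26 (21.5%, 15.1 to 29.6) were on a list of developmental transcription factors, which held 2.28% of all coding genes. There were 63 genes that were the only coding gene in at least 1 loop. Of these 63, 18 (28.6%, 18.9 to 40.7) were on that list, among them Eya1, Foxa2, Irx1, Isl1, Klf6, Klf7, Nr5a2, Olig3, Osr1, Pou3f3, Sall1, Sox2, Tbx18, Tox, Tox3, Tshz3 and Zfhx3. The same list held 74 of the 712 genes that stand alone between deserts wide enough for an anchor (10.4%, 8.36 to 12.9). Genes of cell adhesion and synaptic organisation were 1 of 63 (Cntn3, 1.59%, 0.281 to 8.46) against 66 of 712 (9.27%, 7.35 to 11.6), and genes of axon guidance 0 of 63 (Wilson interval up to 5.75%) against 16 of 712 (2.25%, 1.39 to 3.62). The intervals overlap for both lists. Ion channels and neurotransmitter receptors were 6 of 63 (9.52%, 4.44 to 19.3) against 4.92%, secreted signals 2 of 63 (Bmp2 and Sfrp1) against 2.39%, and sensory and pheromone receptors 0 of 63 against 0.843%.

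Gene length moved with these shares. The median body of the 712 lone genes was 74.7 kb, that of the adhesion genes among them 413 kb, that of the axon guidance genes 299 kb and that of the transcription factors 60 kb. The 63 enclosed genes had a median of 46.1 kb, and the 18 transcription factors among them 22.7 kb. The part of length in the shares was not tested.

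Isl1, a LIM homeodomain factor of sensory and motor neurons that is also present in the cochlea's sensory epithelium, had the most desert loops. All 4 ended in the same right bin (chr13:116710001-116720000), 135 kb from Parp8 and 400 kb from the start of Isl1, while their left anchors lay 630, 860, 1020 and 1070 kb from the start on the other side. The distances were 1040, 1270, 1430 and 1480 kb and the FDRs 0.00223, 0.000928, 0.0385 and 0.00111. Isl1 itself is 11.4 kb long and stood between deserts of 1196 kb (toward the integrin gene Itga1) and 545 kb (toward Parp8), each with 4 desert loops.

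Klf6 and Tshz3, both genes of zinc finger factors, showed the same layout. The 3 Klf6 loops measured 1540, 1690 and 1810 kb with FDRs of 0.00823, 0.0478 and 0.0230, and their right anchors fell within 10 kb of each other while the left ones spread over 270 kb. The 3 Tshz3 loops measured 1200, 1270 and 1450 kb with FDRs of 0.0501, 0.00350 and 0.000334, with a right spread of 10 kb and a left spread of 240 kb. Their deserts reached 895 kb toward Zfp507 and 699 kb toward Zfp536. In all, 18 sets of 2 or more desert loops enclosed the same genes, and 10 of the sets shared a left or a right bin.

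**Figure D5:**
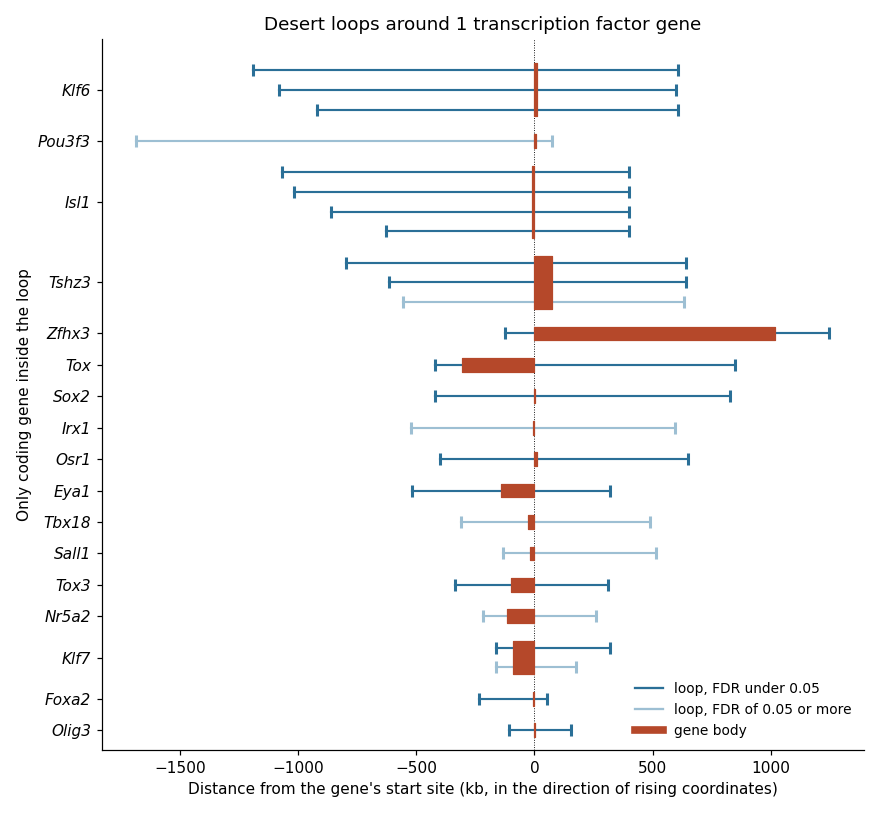
Desert loops that enclose 1 coding gene from the list of developmental transcription factors, for the genes named in the text, drawn as lines between anchors against the distance from the gene's start site (kb, in the direction of rising coordinates). Red bars are gene bodies, dark blue lines have an FDR under 0.05 and light blue lines a higher one. The 4 Isl1 loops share their right end at 400 kb, and the Klf6 and Tshz3 loops end within 10 kb of each other on the right.

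Of the genes on a list for the cochlea and hearing (patterns of symbols written from general knowledge), 4 stood alone in a loop. Sox2, a factor of sensory progenitors, is 2.06 kb long and lay in a loop of 1260 kb (FDR 0.0110) whose anchors were 420 and 830 kb from its start. Eya1, a transcriptional coactivator needed for ear development, lay in a loop of 850 kb (FDR 0.0293). Osr1, a zinc finger factor of mesenchyme, lay in a loop of 1060 kb (FDR 0.0189), and Isl1 is the fourth. With other genes beside them, Kitl, the ligand of the Kit receptor, lay in a loop of 520 kb (FDR 0.00274), and Bmp4, a secreted growth factor, in loops of 570 and 660 kb (FDRs 0.00903 and 0.0827). The hearing list held 4 of 63 lone enclosed genes (6.35%, 2.50 to 15.2) and 24 of 712 lone genes between deserts (3.37%, 2.28 to 4.97), so the shares could not be told apart at these counts.

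The other factors had 1 or 2 loops each. Klf7, a Krüppel-like factor gene, lay in loops of 350 and 490 kb that shared their left bin (FDRs 0.0632 and 0.000707). Olig3, a factor of neural progenitors, had the shortest single-gene loop of the list at 270 kb (FDR 0.000436), with anchors 107 and 153 kb from its start. Foxa2, a forkhead factor of the floor plate and endoderm, had one of 300 kb (FDR 0.000549). Tox3 lay in a loop of 660 kb (FDR 0.00680) and Zfhx3, whose body of 1019 kb was the longest of a lone enclosed gene, in one of 1380 kb (FDR 0.0293). The loops of Nr5a2, Sall1, Tbx18, Pou3f3 and Irx1 had FDRs from 0.0504 to 0.0988.

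A pair of the 5 desert loops with the lowest FDRs lay inside a desert, and the other 3 crossed a single gene. Gnai1, which encodes an inhibitory G protein subunit, lay in the loop with the lowest FDR of all (360 kb, FDR 3.28e-05, chr5:18080001-18090000 to chr5:18440001-18450000). Its anchors were 60.2 kb from Gnat3 and 79.6 kb from Gnai1, and it is the convergent pair printed first above. Cxxc4, which encodes an inhibitor of Wnt signalling, lay in a loop of 750 kb (FDR 4.03e-05) between Tet2 and Tacr3 that had no consensus match at either anchor. Plppr4, a phospholipid phosphatase related gene of neurons, lay in a loop of 290 kb (FDR 0.000255). Inside the desert of 778 kb between the neuropeptide gene Npvf and Nfe2l3, a loop of 120 kb had an FDR of 0.000184.

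The 5 longest desert loops measured 1790 to 1910 kb. The longest spanned Tmtc2 and 7 predicted genes on chromosome 10 (FDR 0.0151), and its left anchor bin was 77.0% masked. The second, of 1890 kb, was the only one of these inside a desert, the 2110 kb between Tmprss15 and the adhesion gene Ncam2 (FDR 0.0549). The others enclosed Klf6, then Nr4a2 and Gpd2 (1800 kb, FDR 0.00165), then the sodium-calcium exchanger gene Slc8a1 and Gm11096 (1790 kb, FDR 0.0286).

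The 5 loops farthest from any coding gene measured 140 to 250 kb, and 4 of them had an FDR of 0.05 or more. Between Sel1l and Flrt2, in a desert of 3843 kb, a loop of 250 kb had both anchors over 1 Mb from a gene (1821 and 1762 kb) and an FDR of 0.0785. Between Zeb2 and Acvr2a (3697 kb) a loop of 140 kb had an FDR of 0.0650, between Fam181b and Tenm4 (3089 kb) one of 160 kb had 0.0769, and between Kcnt2 and Cdc73 (2987 kb) one of 240 kb had 0.0994. The loop of 150 kb between Slc10a2 and Efnb2 (3512 kb) had an FDR of 0.0189. In 4 of these 5 loops an anchor bin was mostly masked, with 70.8% to 89.4% in the more masked bin, the exception being Kcnt2 to Cdc73. The repeated stretch printed above for Slc10a2 comes from such a bin.

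Deserts with a desert loop were the longer ones, but a longer desert also has more bins that can hold an anchor. No share per bin or per length was computed. Of 2178 deserts wide enough to hold an anchor, 252 held one (11.6%, 10.3 to 13.0). The share was 5.70% of 1561 deserts under 500 kb, 26.1% of 353 from 500 kb to under 1 Mb (21.8 to 30.9) and 26.9% of 264 of 1 Mb or more (21.9 to 32.5), with overlapping intervals in the longer groups. The median length was 678 kb with an anchor of a desert loop and 261 kb over all. Most of the 252 were reached by a single loop (184), 41 by 2, 23 by 3 and 4 by 4. Loops inside a desert took a median of 24.0% of its length (quartiles 12.7 and 44.7).

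The most occupied deserts were of both kinds. The desert between Npvf and Nfe2l3 held 4 loops of 120 to 340 kb, all inside it, and 3 of them had an FDR under 0.05. The desert from Btg1, an antiproliferative gene, to the proteoglycan gene Dcn held 2 inside and 2 across Btg1 (730 and 1100 kb, FDRs 0.0118 and 0.0119). The desert from Arrdc4 to the nuclear receptor gene Nr2f2 (1603 kb) held 1 inside and 2 across Arrdc4, and all 3 had an FDR under 0.05. The desert from Klf7 to Creb1 held 3, and so did that from Dnajc24 to Mpped2 (690 kb), next to Pax6. A loop of 730 kb there enclosed Pax6, a paired-box gene of the eye and brain, with Elp4, Immp1l and Dnajc24 (FDR 0.0309).

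Deserts with a loop inside were bordered by 206 coding genes. Among these, 25 were developmental transcription factors (12.1%, 8.36 to 17.3), against 221 of 3604 genes that border any desert (6.13%, 5.39 to 6.96). Axon guidance genes numbered 11 (5.34%, 3.01 to 9.31) against 0.999%: Efnb2, Epha4, Epha5, Nrp1, Plxna2, Rgma, Robo1, Robo2, Sema3a, Sema3d and Unc5d. Adhesion genes numbered 17 (8.25%, 5.22 to 12.8) against 3.27%. For both lists the intervals overlap those of the 63 lone enclosed genes, and the difference was not tested. Desert length moved with these counts, since adhesion genes made up 12.0% of the 475 genes that border any desert of 1 Mb or more and 12.1% of the 107 that border one with a loop inside. At that length axon guidance genes stood at 3.16% and 7.48% (3.84 to 14.1), and transcription factors at 7.37% and 12.1% (7.24 to 19.7).

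Loops inside a desert lay at varied distances from the bordering gene. In the desert of 1739 kb between Gbe1 and Robo1, a receptor of the Slit guidance cues, a loop of 960 kb (FDR 0.000269) ended 88.3 kb from Robo1. In the desert of 3443 kb between the adhesion gene Tenm2 and Mat2b, 3 loops of 560 to 1010 kb had FDRs of 0.00420 to 0.0226, and all stayed over 2 Mb from Tenm2 (2344 to 2354 kb). In the desert of 1248 kb between Camk1g and the semaphorin receptor gene Plxna2, loops of 250 and 510 kb had FDRs of 0.0118 and 0.00862 and ended 918 and 398 kb from Plxna2. In the desert of 1805 kb between Slc4a3 and Epha4, an ephrin receptor gene, 3 loops were listed, 287 to 1437 kb from Epha4, and 1 had an FDR under 0.05.

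Far from coding genes does not mean free of annotated genes. A lincRNA (a long noncoding RNA gene between coding genes) overlapped 77 of the 455 anchor bins of desert loops (16.9%, 13.8 to 20.6), against 11.4% of all bins far from genes and 20.7% (18.5 to 23.1) of the far anchor bins of other loops. Of the 131 loops inside a desert, 70 (53.4%) held or touched a lincRNA and 111 (84.7%) held a noncoding gene or pseudogene of some kind, between the anchors. These shares were not counted for other stretches of desert. In 6 loops the same lincRNA overlapped both anchor bins: Lncpint (138 kb, loop of 80 kb, FDR 0.000421), Gm49317, 2600014E21Rik, Gm26713, Gm32647 and 6030407O03Rik, the last 4 with FDRs from 0.0515 to 0.0798. Rubie, a lincRNA beside Bmp4, overlapped the right anchor of the 570 kb Bmp4 loop. No desert loop had an anchor within 50 kb of an immunoglobulin or T cell receptor segment.

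Base composition of the anchors lay between that of deserts and that of other anchors. The median GC content was 40.9% over desert-loop anchor bins (quartiles 38.6 and 43.0), 39.2% over all bins far from genes, 42.4% over other loops' anchor bins far from genes and 44.3% over all other anchor bins. Bins far from genes made up 34.2% of usable bins and 14.1% of anchor bins. Anchors of desert loops were used by 2 or more loops of any kind in 92 of 455 cases (20.2%, 16.8 to 24.2), against 13.3% (12.6 to 13.9) of other anchor bins. A far bin with more loops is more likely to have a desert loop among them, so the split itself favours the first share. By desert loops alone, 25 of 455 bins were shared (5.49%, 3.75 to 7.99). Along the genome, chromosome 16 had 16 desert loops among its 241 loops (6.64%) and 37.7% of its bins far from genes, chromosome 7 had 19 of 351 (5.41%) with 24.5% of bins, and chromosome 19 had none among 170 with 22.4% of bins.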

How the data were processed

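The authors aligned the Micro-C reads of 4 replicates to mm10 with BWA, kept unique, deduplicated pairs, merged the replicates and built matrices with Juicer tools, on which Mustache called loops at 10 kb. Tool versions are not given in the sources used here. The FDR of each loop is a q-value that the authors' caller computed and deposited, and all lie below 0.1. The detection scale is a score, deposited per loop and used here only as a filter. The depth behind a loop is unknown, since the file holds no counts. ATAC-seq and CUT&RUN samples were not analysed here.

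Gene bodies came from GENCODE vM21, and letters, GC content and soft-masking from RefSeq GRCm38.p6. All bins ended inside the chromosomes of that build. The CTCF consensus and the gene lists (patterns of symbols) were written from general knowledge. A bin took the strand of its best match and had none where the best matches tied between strands. Shares carry 95% Wilson intervals and medians order-statistic intervals. No test was run, because the list holds 1 merged map. Python 3.11.15, numpy 2.4.6, pandas 2.3.3, scipy 1.17.1 and matplotlib 3.10.9 were used, and the code was tested on simulated data. The desert loops, lists and comparisons were chosen with earlier results of these data known.

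Named in the text are the 10 deserts with most desert loops (ties by lowest FDR), the 5 desert loops each with the lowest FDR, the greatest distance and the greatest distance from a coding gene, the genes inside these, and listed genes inside or beside desert loops. Some of these are not reported here. The desert between Slc4a3 and Epha4, that between Camk1g and Plxna2, the lincRNAs and the sets of loops around shared genes follow from lists or counts given in full. The limit of 60% for mostly masked bins was chosen after seeing the data. Alternatives were a margin of 25 or 100 kb, receptor segments or genes of every biotype counted as genes, an FDR under 0.05, the smallest detection scale, calls within 100 kb merged, a consensus without mismatch, bins with all matches on one strand, and loops without a mostly masked anchor.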

Additional observations from a re-analysis of the deposited data

How the results depend on the processing

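Of 58 values recomputed under 10 alternatives, 35 moved by less than their interval (or by less than 1.5 times for a count) and 23 by more. With a margin of 25 kb there were 375 desert loops in 418 deserts, 45.1% without a coding gene inside. With a margin of 100 kb there were 139 in 132 deserts, at a median of 330 kb, 69.1% without a gene inside and 36.9% of anchor bins with a CTCF match. With genes of every biotype counted, 28 loops in 39 deserts were left, at a median of 230 kb, 46.4% without a gene inside, 35.2% of bins with a match and 80% convergent. At an FDR under 0.05 there were 144 loops, at a median of 515 kb, 43.8% without a gene inside, 49.6% of bins with a match and 80.6% convergent. Without loops that had a mostly masked anchor (chosen after seeing the data), the median was 550 kb, 66.3% had an FDR under 0.05 and 42.0% had no gene inside. Without mismatches, 10.1% of anchor bins held the consensus. The cause of these shifts was not tested. No paired analysis was possible because every loop has 1 value from the pooled map, and for that reason leaving out single replicates could not be run either. What depth limits cannot be read from the list, which gives no contact counts.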
